A study of Mus musculus with 2 samples.

Results

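Malat1, Neat1, Meg3, Miat and Snhg11, 5 long noncoding RNAs known for a nuclear location, were followed through droplet single-cell RNA sequencing of the mouse retina. The members were found by their symbols, each of which matched 1 of the 32285 genes in the count matrices. They were described across cell classes gated on marker genes, against each cell's mitochondrial share, and between the 2 libraries of the series. Nuclear location was not measured here, and the word is used as background.

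The db/db library was made from C57BLKS mice (C57BLKS-Leprdb/db, BKSDB in the labels) homozygous for the db mutation of the leptin receptor gene Lepr, an obese and diabetic model. The wild type library was made from C57BLKS mice with 2 wild type copies of Lepr (C57BLKS-Leprwt/wt, BKSWT in the labels). Both groups were untreated and 13 weeks old, with 2 mice and 1 library per genotype. The db mutation is carried by every cell of the animal, and cells were not assigned to single mice. Neither library has a replicate, so no test between genotypes was possible. All intervals are 95% intervals of the counts alone, so variation among animals and cell preparations is not in them.

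After filtering, the db/db library held 10963 cells with a median of 2051 unique molecular identifiers (UMIs, counts of distinct captured RNA molecules), and the wild type library 10230 cells with a median of 2314 UMIs. The gates found 9262 db/db and 7993 wild type rods, 265 and 277 cones, 337 and 424 bipolar cells, 129 and 210 Müller glia, 16 and 70 amacrine cells, and 45 and 43 microglia or macrophages. Leading genes of each gate held between 2 and 8 of its own markers among the top 10 and no marker of another class. Since the cells were gated on these same markers, this is no independent check of the class labels. Snhg11 was itself among the 10 leading genes of the amacrine gate, although it was no gating marker. The libraries shared 26 barcodes. Erythroid markers summed to 51.5 CPM (UMIs of a gene or list per 1000000 UMIs) in db/db rods and 16.9 CPM in wild type rods, and to 32.8 CPM in db/db cones and 87.4 CPM in wild type cones, so the direction differed between classes.

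Malat1 is retained in nuclear speckles, the storage sites of splicing factors. Neat1 is the scaffold of paraspeckles, nuclear bodies built around its long isoform, and is induced in many cells under stress. Meg3, also called Gtl2, is transcribed from the maternal copy of the imprinted Dlk1-Dio3 locus. Miat, also called Gomafu or Rncr2, was described in developing and mature neurons of the retina. Snhg11 hosts small nucleolar RNAs in its introns and is brain enriched.

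On the GRCm38 assembly, Malat1 (ENSMUSG00000092341) lies at chr19:5795690-5802672 on the minus strand, and Neat1 (ENSMUSG00000092274) at chr19:5824708-5845478 on the same strand of the same chromosome. Meg3 (ENSMUSG00000021268) lies at chr12:109541001-109571726 on the plus strand. Miat (ENSMUSG00000097767) lies at chr5:112213228-112229395 on the minus strand. Snhg11 (ENSMUSG00000044349) lies at chr2:158375638-158386145 on the plus strand. GENCODE M21 lists the first 4 as long intergenic noncoding RNAs and Snhg11 as protein coding, whereas RefSeq lists all 5 as long noncoding RNAs. Genes on the other strand overlap Malat1 (Gm37376), Meg3 (Gm26906) and Miat (Gm26953). Since the use of read strand in counting was not given in the sources used here, reads of these members and of their antisense partners cannot be told apart.

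The libraries capture RNA through its adenylated end or through internal runs of A, so the ends of these transcripts bear on what was counted. Mature Malat1 and the long Neat1 isoform have no conventional poly(A) tail, and each ends in a stretch in which runs of U fold against a run of A. These stretches are shown because they are the ends that oligo-dT would have to meet. They are given as DNA, 5′ to 3′, from the GENCODE M21 transcripts, with capitals on runs of at least 10 bases found in both.
Malat1 chr19:5795982-5796065: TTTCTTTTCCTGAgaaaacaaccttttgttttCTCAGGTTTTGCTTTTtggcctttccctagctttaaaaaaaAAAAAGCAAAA
Neat1 chr19:5824708-5824797: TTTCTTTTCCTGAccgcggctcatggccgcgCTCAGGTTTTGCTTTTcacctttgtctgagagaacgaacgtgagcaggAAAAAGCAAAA
The 2 stretches share 40 bases in 3 runs of 13, 16 and 11 bases, and span 84 bases in Malat1 and 90 in Neat1. The Malat1 stretch holds a run of 12 A, the one run of 8 or more A in its 6983 base transcript. The 20771 base Neat1 transcript holds no run of 8 or more A, with 7 as its longest. In the 14548 base longest Meg3 transcript there are 7 such runs, in the 5864 base longest Snhg11 transcript 3, and in the 9163 base longest Miat transcript 0.

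The ends of annotated transcripts are shown next, because a 3′ library counts short Neat1, Meg3 and Miat there. The Malat1-201 end lies 292 bases past the stretch shown above, and whether Malat1 RNA is adenylated there was not measured. The Snhg11 end is not shown. Capitals mark the polyadenylation signal AATAAA or ATTAAA, whose first base lay between 19 and 22 bases from the end.
Malat1-201 chr19:5795690-5795739: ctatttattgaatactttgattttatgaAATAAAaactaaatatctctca
Neat1-202 chr19:5842307-5842356: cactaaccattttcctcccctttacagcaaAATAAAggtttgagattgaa
Meg3-207 chr12:109571672-109571721: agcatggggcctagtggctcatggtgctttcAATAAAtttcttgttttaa
Miat-205 chr5:112213228-112213277: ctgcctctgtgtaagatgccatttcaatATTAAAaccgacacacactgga
Levels were not compared between members, since the ends that can be captured differ. Each was compared with itself across classes and libraries.

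Malat1 was detected in every rod, cone, bipolar cell, Müller cell and amacrine cell of both libraries. It made up 10.2% of all UMIs in db/db Müller glia and 10.1% in wild type Müller glia. In rods the share was 6.04% in the db/db library and 5.66% in the wild type library, and in bipolar cells 5.49% and 5.23%. Cones held 4.03% in the db/db library and 4.76% in the wild type library. Microglia or macrophages held 2.84% and 2.92%. The order of classes was the same in both libraries, with Müller glia highest, then amacrine cells, rods, bipolar cells, cones, and microglia or macrophages. Neighbours in that order were apart by more than their counting intervals in both libraries. Müller glia stood 1.69 times above rods in the db/db library and 1.79 times in the wild type library. Rods and bipolar cells were the closest neighbours, at a log2 ratio of bipolar cells over rods of -0.14 in the db/db library and -0.11 in the wild type library.

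Erythroid-gated droplets give a reading of RNA that is not the cell's own, because mature red cells lack nuclei. In them Malat1 was 0.346% of UMIs in the db/db library and 0.296% in the wild type library, or 29.4 and 14.4 UMIs per droplet. Erythroid markers made up a median of 94.1% and 91.0% of the UMIs of these droplets, so these shares are not comparable with those of rods. The median droplet held only 504 and 431 UMIs that were not haemoglobin. Rods held 173.9 Malat1 UMIs per cell in the db/db library and 188.8 in the wild type library. A Malat1 UMI alone therefore does not show a nucleated cell in these data, since 36 of 37 db/db and 21 of 21 wild type erythroid droplets had one, at median depths of 10124 and 5078 UMIs.

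Neat1 was highest in microglia or macrophages, where it reached 1275 CPM in the db/db library and 1023 CPM in the wild type library. Müller glia held 286 and 397 CPM. Bipolar cells held 22.9 CPM (interval 14.8 to 33.8) and 18.9 CPM, rods 10.9 and 10.8 CPM, and cones 6.91 and 6.79 CPM, so rods and cones did not differ beyond counting error in either library. Microglia or macrophages stood 117 times above rods in the db/db library and 95.1 times in the wild type library. No Neat1 UMI was seen in the 16 db/db and 70 wild type amacrine cells. Over their 87054 and 437632 UMIs a count of 0 has upper interval limits of 42.4 and 8.43 CPM. The db/db limit lay above the Neat1 levels of db/db bipolar cells and rods, whereas the wild type limit lay below both wild type levels.

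Single cells differed widely in Neat1. Of the 45 db/db microglia or macrophages 29 had a Neat1 UMI, against 22 of 43 in the wild type library. After thinning each cell to 1000 UMIs, which left out 10 and 9 shallower cells, the shares were 57.1% in the db/db library (interval 39.4 to 73.7%) and 47.1% in the wild type library (29.8 to 64.9%). In Müller glia the thinned shares were 12.5% and 17.2%, and 33.3% and 29.5% at full depth. In thinned rods 1.23% of db/db cells and 0.996% of wild type cells had a Neat1 UMI. No thinned erythroid droplet of 36 db/db and 21 wild type droplets had one, with upper interval limits of 9.74% and 16.1%. At full depth 1 of 37 db/db droplets had one.

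Meg3 marked the inner retina. Amacrine cells held 2745 CPM in the db/db library and 3994 CPM in the wild type library. Bipolar cells held 1559 and 1623 CPM and Müller glia 427 and 514 CPM. Cones held 54.4 and 27.2 CPM and rods 10.0 and 18.9 CPM. Microglia or macrophages had 1 and 2 Meg3 UMIs. Bipolar cells stood 156 times above rods in the db/db library and 85.9 times in the wild type library. A Meg3 UMI was present in 61.1% of thinned db/db and 64.6% of thinned wild type bipolar cells, and in 72.4% and 77.6% at full depth. The thinned shares were 86.7% and 94.0% in amacrine cells, against 1.08% and 1.73% in rods, and 2.78% (1 of 36 droplets) and 0% in erythroid droplets. The erythroid droplets are a weak reading of background, since their median was only 504 and 431 non-haemoglobin UMIs before thinning, and the 1 droplet held all 8 Meg3 UMIs. Whether the low rod shares are background or expression in rods could not be told apart.

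Snhg11 was concentrated in amacrine cells, the inhibitory interneurons of the inner retina. They held 3791 CPM in the db/db library and 4006 CPM in the wild type library, and 31.9% and 48.1% of all Snhg11 UMIs of the kept cells, although they were 0.146% and 0.684% of those cells. Bipolar cells held 279 and 461 CPM and Müller glia 27.1 and 59.1 CPM. Rods held 4.57 and 11.9 CPM, and cones 0.864 CPM (1 UMI) and 3.40 CPM (4 UMIs). Amacrine cells stood 829 times above rods in the db/db library and 336 times in the wild type library. In thinned cells 86.7% of db/db and 89.6% of wild type amacrine cells had an Snhg11 UMI, 18.7% and 27.2% of bipolar cells, and 0.430% and 1.29% of rods. No thinned erythroid droplet had one, but 36 and 21 droplets of mostly haemoglobin RNA cannot set the rod shares apart from background.

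Miat was all but missing from these libraries. Over all barcodes it had 1 UMI in the db/db library, in a rod, and 4 UMIs in the wild type library, 2 in 1 Müller cell and 2 in 1 amacrine cell. No cone or bipolar cell of either library held a Miat UMI. The count of 0 in 7993 wild type rods allows up to 0.0461% of cells with a UMI. No ratio between libraries or classes is given for Miat, since both libraries were at or near the floor of 3 counts.

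**Figure D1:**
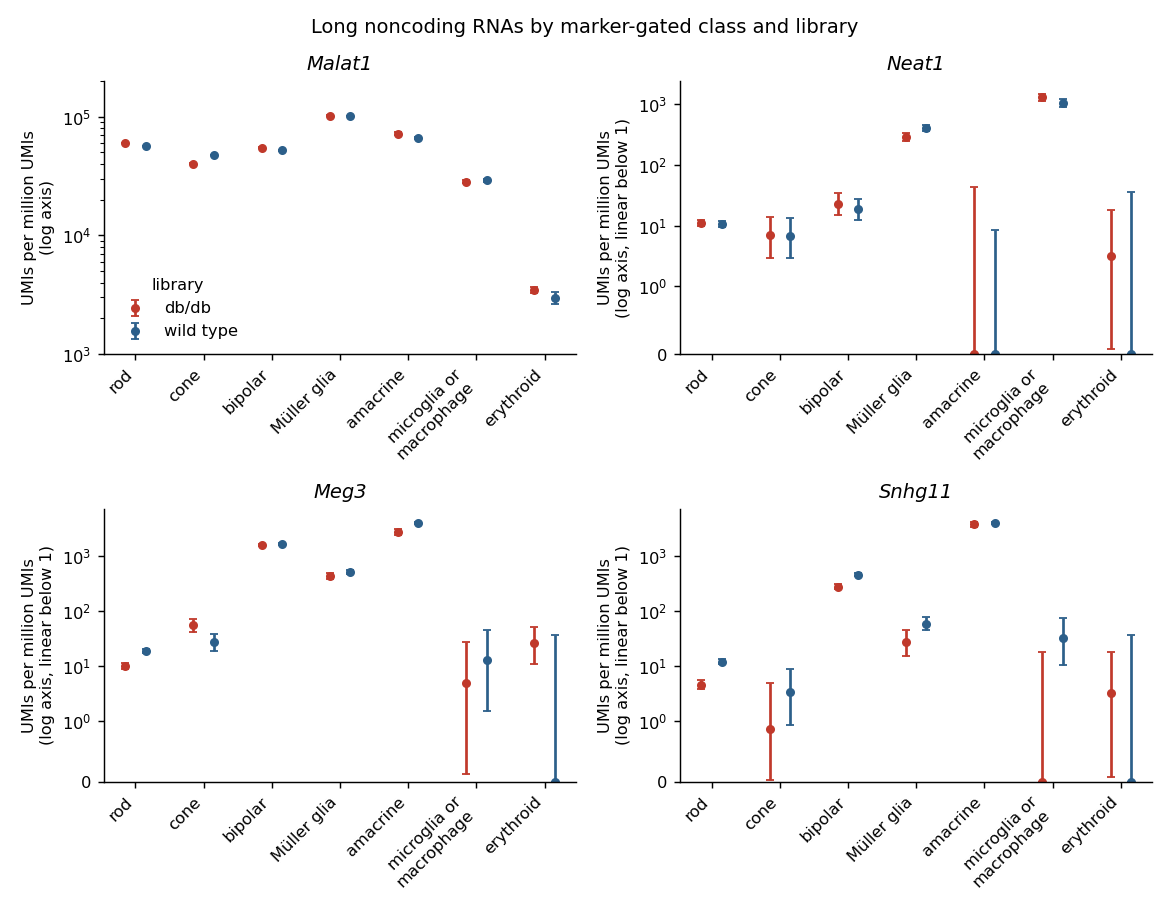
Levels of Malat1, Neat1, Meg3 and Snhg11, in CPM on log axes (linear below 1 except for Malat1), in 7 marker-gated classes of the db/db library (red, left) and the wild type library (blue, right). Points are summed counts of a class and bars are exact 95% Poisson intervals, so Neat1 peaks in microglia or macrophages at 1275 and 1023, and Snhg11 in amacrine cells at 3791 and 4006. Erythroid droplets hold mostly haemoglobin RNA, so their CPM is not comparable with that of the other classes.

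The bipolar cells allowed a finer look, since clustering that left the members out split them into 3 groups. One was led by Pcp2 and Trpm1, one by Cntn5 with Cabp5, and one by Grik1 and Gsg1. Meg3 was highest in the Grik1 group, at 2384 CPM in the db/db library and 2309 CPM in the wild type library. The Pcp2 group held 1571 and 1406 CPM, and the Cntn5 group 1034 and 1534 CPM. Snhg11 was highest in the same Grik1 group, at 428 and 680 CPM, against 308 and 607 CPM in the Cntn5 group and 208 and 319 CPM in the Pcp2 group. Malat1 was at 52953, 58192 and 54836 CPM in the Pcp2, Cntn5 and Grik1 groups of the db/db library, and at 48918, 59136 and 53654 CPM in the same groups of the wild type library, so the Cntn5 group was highest in both.

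Malat1 fell into 2 modes in rods, cones and Müller glia of both libraries when each cell's share of its non-mitochondrial UMIs was plotted. The median over rods was 6.65% in the db/db library and 6.32% in the wild type library, with 5th percentiles of 0.572% and 0.660%. A limit of 2% was chosen after the values were seen, above the rod dip, whose emptiest bin began at 1% and held 0.821% and 1.03% of rods. It put 834 db/db rods (9.0%) and 695 wild type rods (8.70%) below it, called the low mode here. Below the same limit were 10.9% and 12.3% of cones and 26.4% and 15.7% of Müller glia, whose low values ran past 2% with no sharp dip. Bipolar cells had no separate low peak, and 6.82% and 5.90% of them lay below the limit. Müller glia had the widest spread, with 25th percentiles of 1.95% and 3.88% and 75th percentiles of 11.7% and 12.7%.

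**Figure D2:**
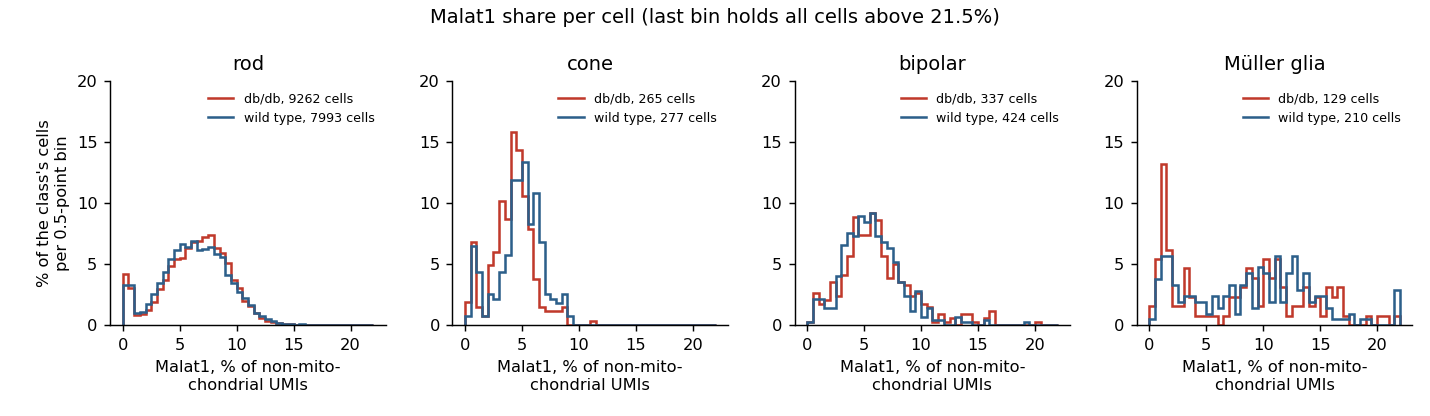
Distribution over cells of the Malat1 share of non-mitochondrial UMIs, in bins of 0.5 percentage points, for 4 classes of the db/db library (red) and the wild type library (blue), with all higher values in the last bin. The vertical axis is the percentage of the class's cells in a bin, and values under 2% are held by 9.0% and 8.70% of rods and 26.4% and 15.7% of Müller glia.

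Cells of the low mode differed from the rest of their class in other readouts. Low-mode rods had a median mitochondrial share of 9.90% in the db/db library and 8.21% in the wild type library, against 2.20% and 2.68% in the other rods. Cytosolic ribosomal protein mRNAs made up 10.6% and 10.5% of their non-mitochondrial UMIs, against 3.58% and 4.27% in the other rods. The rod markers made up 10.9% and 10.7%, against 6.30% and 6.62%. Low-mode rods were no shallower, with medians of 2129 and 2608 UMIs, against 1899 and 2111.5 in the other rods, yet they held fewer genes, 981 and 1179 against 1145.5 and 1226. Meg3 was at 7.50 CPM of non-mitochondrial UMIs (15 UMIs) in db/db and 12.7 CPM (28 UMIs) in wild type low-mode rods, against 10.6 and 20.3 CPM in the other rods. Snhg11 was at 5.00 CPM (10 UMIs) and 7.68 CPM (17 UMIs) in low-mode rods, against 4.72 and 12.8 CPM.

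In Müller glia the low mode went with depth as well. Low-mode cells had medians of 803 UMIs in the db/db library and 776 in the wild type library, against 5824 and 5163 in the others, and mitochondrial shares of 12% and 11%, against 2.13% and 2.40%. The share of Müller markers was alike in both modes, at 2.10% and 2.01% in the low mode and 2.13% and 2.09% in the others. Neat1 had 0 UMIs in the low-mode Müller cells of both libraries, against 311 and 421 CPM of non-mitochondrial UMIs in the others. In the low mode a floor of 3 counts would stand at 111 and 110 CPM. Meg3 was at 147 CPM (4 UMIs) and 36.6 CPM (1 UMI) in the low mode, against 456 and 544 CPM in the others. Whether depth or the mitochondrial share had a part in this was not tested.

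The mitochondrial share of UMIs is often read as a sign of cell damage, when cytoplasmic RNA leaks out. Rods were split into 5 bins of that share, and levels were expressed as CPM of non-mitochondrial UMIs so that the share itself did not enter the denominator. Malat1 stood at 78711 CPM in db/db and 81162 CPM in wild type rods with 0 to 1% mitochondrial UMIs. It was lower in each next bin, at 72938 and 69743 CPM (1 to 2.5%), 59475 and 55627 CPM (2.5 to 5%), 42217 and 38741 CPM (5 to 10%), and 21141 and 19000 CPM (10 to 20%). The lowest bin thus stood 3.72 times above the highest in the db/db library and 4.27 times in the wild type library, on the log2 scale 1.90 (interval 1.88 to 1.91) and 2.09 (2.07 to 2.12).

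Meg3 and Snhg11 were higher in the highest bin than in the lowest. The low-mode rods above, whose median mitochondrial shares were also high, held less Meg3 than the other rods in both libraries. Meg3 stood at 6.08 CPM in db/db and 12.1 CPM in wild type rods of the lowest bin, and at 22.3 and 42.3 CPM in the highest bin, log2 ratios of lowest over highest of -1.88 and -1.81. Snhg11 stood at 3.12 and 10.6 CPM in the lowest and 7.93 and 24.5 CPM in the highest bin, ratios of -1.35 and -1.21, which rest on 20 and 11 UMIs in the db/db library and 36 and 18 in the wild type library. The wild type Snhg11 ratio was -0.11 after thinning. Over single thinned rods Spearman's correlation of either RNA with the mitochondrial share lay between -0.00 and 0.03, too weak in such sparse counts to be read. Neat1 in the db/db library had 93 and 18 UMIs in the lowest and highest bins, a ratio of 0.16 (interval -0.58 to 0.98). In the wild type library 57 UMIs stood against 1, a ratio of 3.62 (1.09 to 8.95), so the libraries gave no common direction beyond counting error.

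Most genes were not flat over the same bins. Of 9353 measured genes in the db/db library 55.8% were higher by at least 0.5 (log2) in the lowest bin and 10.9% lower, with a median of 0.61. Of 8319 in the wild type library 54.4% were higher and 11.8% lower, with a median of 0.58. Against this background, 1 of 3 measured members (Malat1) in the db/db library and 2 of 4 (Malat1 and Neat1) in the wild type library were higher. Meg3 was lower in both libraries and Snhg11 in the wild type library. In the db/db library Snhg11 had fewer than the 50 UMIs asked of a measured gene. A higher ratio than that of Malat1 was seen in 3.58% of the genes in the db/db library and 2.69% in the wild type library. A lower ratio than that of Meg3 was seen in 0.866% and 0.745%, and than that of Snhg11 in 2.53% and 3.53%. These shares are descriptions of the 2 libraries.

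Lists of other genes differed in direction over the same bins. Of 19 measured mRNAs of nuclear speckle and splicing proteins, 16 in the db/db library and 17 in the wild type library were higher in the lowest bin and 0 lower, with medians of 0.89 and 0.90. Of 81 cytosolic ribosomal protein mRNAs, 1 was higher in each library and 77 and 78 were lower, with medians of -1.90 and -1.77. Among 28 other noncoding RNAs, 15 and 13 were higher and 6 lower in each, with medians of 0.78 and 0.45. Kcnq1ot1, the noncoding RNA of the Kcnq1 imprinted locus, was at 1.92 and 2.00. Mir124a-1hg, host of the neuronal microRNA miR-124, was at 1.55 and 1.58. Gas5, a cytoplasmic host of small nucleolar RNAs, was at -1.0 and -0.89, and Snhg8 at -0.94 and -0.91.

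Other classes repeated the Malat1 slope only in part. In Müller glia Malat1 stood at 120152 CPM in the db/db library and 127242 CPM in the wild type library at 0 to 1% mitochondrial share, and at 39798 and 39401 CPM at 10 to 20%. Cones held 47251 and 56384 CPM at 2.5 to 5%, and 36328 and 36564 CPM at 10 to 20%. Bipolar cells held 59572 and 53955 CPM at 2.5 to 5%, and 64893 and 55187 CPM at 10 to 20%. Spearman's correlation of the Malat1 share with the mitochondrial share over cells of at least 1000 UMIs was -0.55 and -0.56 in rods (8136 and 6529 cells), -0.47 and -0.50 in Müller glia (96 and 163 cells), -0.29 and -0.32 in cones (260 and 273 cells), and 0.00 and -0.04 in bipolar cells (321 and 404 cells). The points share a library and its dissociation, and the difference between classes was not tested.

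**Figure D3:**
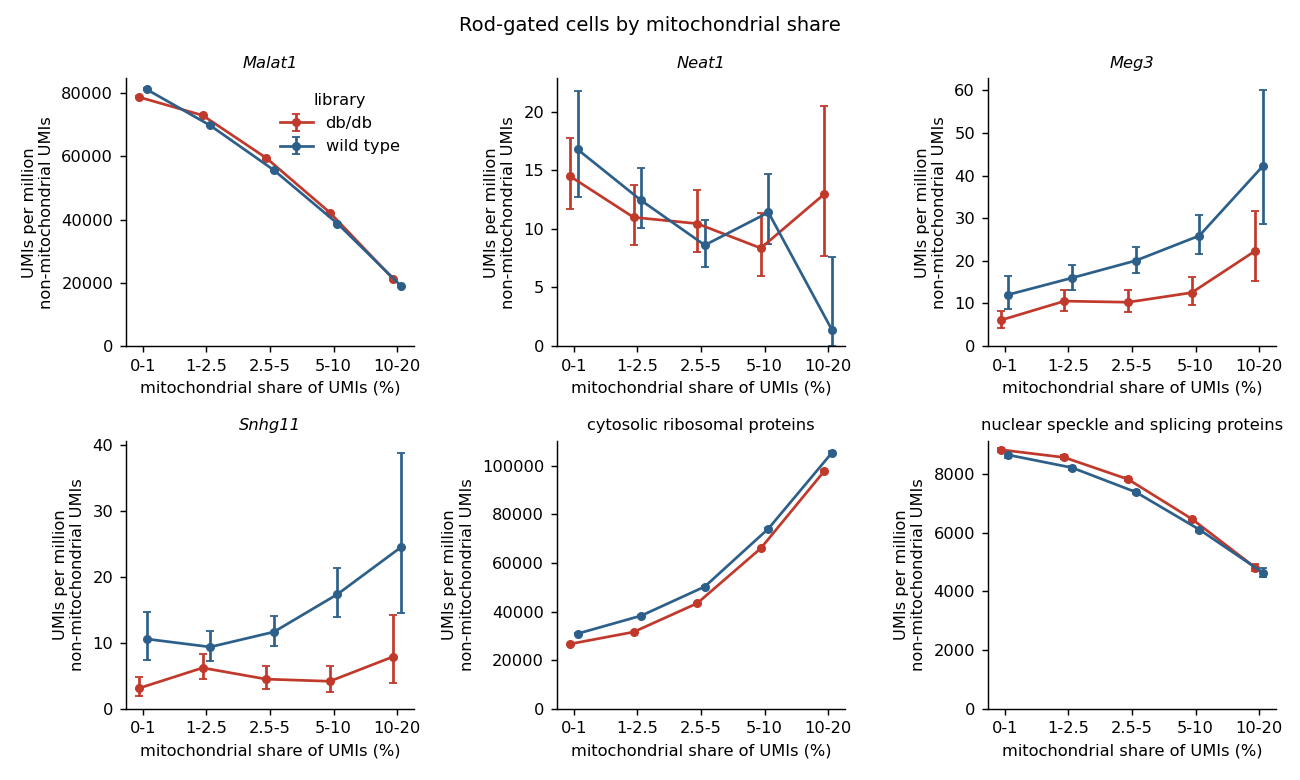
Levels in rods of the db/db library (red) and the wild type library (blue), in CPM of non-mitochondrial UMIs, over 5 bins of the mitochondrial share of a cell's UMIs. Bars are exact 95% Poisson intervals; Malat1 runs down to 21141 and 19000 in the last bin, ribosomal protein mRNAs run up, and Meg3 and Snhg11 are lower in db/db rods in each of the 5 bins.

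Between the genotypes, Malat1 and Neat1 were nearly level in rods, whereas Meg3 and Snhg11 were lower in the db/db library. Malat1 was at 60393 CPM in db/db and 56587 CPM in wild type rods, a log2 ratio of 0.09, and Neat1 had 292 and 287 UMIs, a ratio of 0.02 (interval -0.22 to 0.26). Meg3 had 267 UMIs in db/db and 504 UMIs in wild type rods, a ratio of -0.92 (-1.14 to -0.70). Snhg11 had 122 and 318 UMIs, a ratio of -1.38 (-1.70 to -1.08). A gene counted as measured with at least 50 UMIs over both libraries. Thus 2 of 4 measured members were lower by at least 0.5, where 3.15% of 12005 measured genes were, and 1 of 4 lower by at least 1, where 0.441% were. No member was higher by at least 0.5, where 3.42% of the genes were, and none by at least 1, where 0.383% were. The median of the 4 was -0.45, beside 0.03 for all measured genes.

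Most rods with a Meg3 or Snhg11 UMI held 1 or 2, but a small number of richer rods weighed on the Meg3 ratio. Meg3 UMIs came from 2.21% of db/db and 3.89% of wild type rods, and Snhg11 UMIs from 1.06% and 2.93%. The 5 cells with the most UMIs held 35 and 58 of the Meg3 UMIs, and without them the ratio was -0.95. Cells with 3 or more Meg3 UMIs numbered 10 with 55 UMIs among db/db rods, against 33 with 191 UMIs among wild type rods. Without such cells the ratio was -0.58 for Meg3 and -1.20 for Snhg11. Within each bin of mitochondrial share both ratios stayed below 0, between -1.05 and -0.60 for Meg3 and between -2.06 and -0.59 for Snhg11.

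Both RNAs took a larger share of UMIs in shallow rods. Below 1000 UMIs per cell, Meg3 stood at 36.5 CPM of non-mitochondrial UMIs in db/db rods and 89.9 CPM in wild type rods. From 5000 UMIs upwards it stood at 5.72 and 10.7 CPM. Snhg11 stood at 16.4 and 55.3 CPM below 1000 UMIs, and at 2.51 and 4.85 CPM from 5000 UMIs upwards. In all 4 depth ranges both RNAs were lower in the db/db library. Malat1 ran in no single direction over the 4 ranges. It stood at 68098, 70315, 58016 and 62665 CPM in db/db rods and at 64100, 81806, 53441 and 56678 CPM in wild type rods, low to high depth.

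Amacrine cells, in which both RNAs are highest, were also fewer in the db/db library (16 against 70 cells). The rod counts of Meg3 and Snhg11 were not told apart from background RNA above, so these ratios describe UMIs in rod-gated droplets. Over all kept cells Meg3 was at 97.1 CPM in the db/db library and 185 CPM in the wild type library, and Snhg11 at 30.9 and 102 CPM. In rods the 13 amacrine markers summed to 34.5 CPM in the db/db library and 35.5 CPM in the wild type library. Of them 9 were lower and 3 higher in db/db rods, with Chat at 0 in both libraries and Sst at 0 in wild type rods. Most of the sum was the glycine transporter gene Slc6a9, at 685 and 658 UMIs. Gad1, which makes the transmitter GABA, had 16 and 31 UMIs. Other markers were near level or higher in db/db rods, with Gad2 at 20 and 21 UMIs, Cartpt at 67 and 69, and Tfap2a at 21 and 14. Of the other lists in rods, the pericyte list, with 19 and 32 UMIs, was at a log2 ratio of -0.75 (-1.65 to 0.11). The microglia list was at -0.59, the retinal pigment epithelium list at -0.34 and the endothelial list at -0.33. The horizontal list was at -0.25, the Müller list at -0.23, the bipolar list at -0.04, the cone list at -0.01 and the ganglion list at 0.10. The erythroid list, with 1375 and 451 UMIs, went the other way, at 1.61. The part of RNA from amacrine or these other cells in the lower Meg3 and Snhg11 counts of db/db rods was not tested.

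Cones and the inner retina gave a mixed picture. In cones Malat1 was at 40329 CPM in the db/db library and 47579 CPM in the wild type library, a log2 ratio of -0.24, which was -0.11 when clusters replaced the gates. Meg3 had 63 UMIs in db/db cones and 32 UMIs in wild type cones, a ratio of 1.0 (interval 0.37 to 1.66). The 5 cells richest in Meg3 held 37 and 20 of these UMIs. The Meg3 ratio in cones was 0.33 after thinning and 1.70 with a stricter gate. It was 0.74 (-0.21 to 1.74) without cells of 3 or more Meg3 UMIs. Of the 2 members measured in cones 1 was higher by at least 0.5, where 4.37% of 6447 genes were, and none was lower, where 4.34% were.

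In bipolar cells Snhg11 had 305 UMIs in the db/db library and 659 UMIs in the wild type library, a ratio of -0.72 (-0.93 to -0.53). It was lower in each of the 3 bipolar groups, at -0.62 in the Pcp2 group, -0.98 in the Cntn5 group and -0.67 in the Grik1 group. Without the cells of 3 or more Snhg11 UMIs, 41 with 196 UMIs in the db/db library and 86 with 505 UMIs in the wild type library, the ratio was -0.25 (-0.62 to 0.11). Meg3 had 1704 and 2320 UMIs, a ratio of -0.06, made up of 0.16, -0.57 and 0.05 in the same groups. Malat1 was at 0.07 and Neat1, with 25 and 27 UMIs, at 0.28 (-0.57 to 1.12). Thus 1 of 4 members was lower by at least 0.5, where 5.85% of 7373 genes were, and none higher, where 5.47% were. In bipolar cells the amacrine markers summed to 25 UMIs in the db/db library and 44 in the wild type library, 7 of 13 lower and 2 higher, with 7 at 0 in the db/db library and 4 at 0 in the wild type library, and their part was not tested.

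In Müller glia Malat1 was level at a ratio of 0.01. Neat1 had 158 UMIs in the db/db library and 376 UMIs in the wild type library, a ratio of -0.47 (-0.75 to -0.20), which was -0.80 without the 5 richest cells of each library and -0.82 after thinning, but 0.33 (-0.42 to 1.08) without cells of 3 or more Neat1 UMIs. Meg3 had 236 and 487 UMIs, a ratio of -0.27, which ranged from -0.60 to -0.01 over the alternatives tried. Snhg11 had 15 and 56 UMIs, a ratio of -1.1, but it was 0.41 with equal weight per cell, 0.28 after thinning, 0.81 without cells of 3 or more Snhg11 UMIs, -2.37 without the 5 richest cells of each library and -2.66 with clusters in place of gates. Bipolar markers summed to 287 CPM in db/db Müller glia and 835 CPM in wild type Müller glia, 15 of 15 lower, and their part in the Meg3 and Snhg11 ratios was not tested. Of 4 members 1 was lower by at least 0.5, where 7.81% of 5417 genes were, and none higher, where 6.77% were.

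In microglia or macrophages Neat1 had 258 UMIs in the db/db library and 162 UMIs in the wild type library, a ratio of 0.32 (0.03 to 0.61), and Malat1 was at -0.04. Neat1 was at 0.54 without the 5 richest cells of each library and at 0.63 with equal weight per cell, but at -0.25 (-1.79 to 1.33) without cells of 3 or more Neat1 UMIs, which held 249 of 258 and 154 of 162 UMIs. None of the 2 measured members passed 0.5, where 13.1% of 1054 genes were lower and 11.6% higher. The 45 db/db cells were deeper, with a median of 4816 UMIs against 2191 UMIs in the 43 wild type cells, and their own markers summed to 21455 CPM against 29172 CPM. Whether depth had a part in the Neat1 ratio was not tested.

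**Figure D4:**
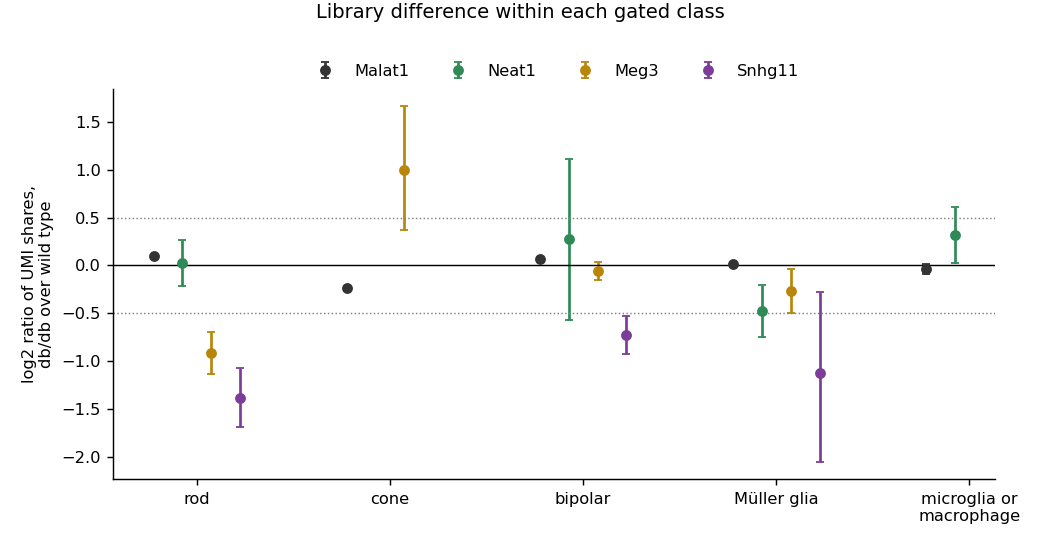
Log2 ratio of UMI shares, db/db over wild type, of the members with at least 50 UMIs in a class, with exact 95% counting intervals and dotted lines at 0.5 and -0.5. Snhg11 is at -1.38 in rods and -0.72 in bipolar cells, Meg3 at -0.92 in rods and 1.0 in cones, and Malat1 stays between -0.24 and 0.09.

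The promoters of Meg3 and Snhg11 are shown because both members were lower in the db/db rod counts. They are RefSeq windows on GRCm38.p6 from 250 bases before to 50 after the annotated start, 5′ to 3′ on the plus strand, with capitals on the motifs searched on both strands.
Meg3 promoter chr12:109540746-109541045: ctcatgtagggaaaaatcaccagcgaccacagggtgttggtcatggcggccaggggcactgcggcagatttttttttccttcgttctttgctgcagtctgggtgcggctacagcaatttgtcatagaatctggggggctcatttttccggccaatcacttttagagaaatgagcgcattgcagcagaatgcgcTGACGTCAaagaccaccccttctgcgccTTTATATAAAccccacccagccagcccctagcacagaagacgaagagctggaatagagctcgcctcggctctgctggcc
Snhg11 promoter chr2:158375463-158375762: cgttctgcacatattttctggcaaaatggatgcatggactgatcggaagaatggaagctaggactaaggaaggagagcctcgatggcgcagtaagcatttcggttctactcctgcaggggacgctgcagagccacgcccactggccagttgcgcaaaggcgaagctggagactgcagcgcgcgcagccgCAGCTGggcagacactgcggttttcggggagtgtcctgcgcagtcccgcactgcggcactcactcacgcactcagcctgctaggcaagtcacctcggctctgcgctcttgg
The cyclic AMP response element TGACGTCA begins 57 bases before the Meg3 start and is held by 1.79% of 32851 promoters. TATAAA, held by 13.6% of promoters, begins 25 bases before that start, and 29 bases before it on the other strand, with overlap. The E-box CAGCTG begins 61 bases before the Snhg11 start, is held by 16.3% of promoters, and is also found in the Malat1 window. TAATCC, the core bound by the photoreceptor factor Crx, is held by 7.06% of promoters and by none of the 5 windows found for Malat1, Meg3, Miat and Snhg11. A second Meg3 window, at another start, held none of the 4 motifs. A match describes letters only.

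Genes related by locus or function showed what else differed in the rod counts. Rian, a maternal noncoding RNA of the same imprinted locus as Meg3, had 31 UMIs in db/db and 47 UMIs in wild type rods, a ratio of -0.60 (-1.30 to 0.08), and was the 1 measured gene of the 5 listed for that locus. Of 34 measured other noncoding RNAs 5 were lower by at least 0.5 and 0 higher, beside 3.15% and 3.42% of all measured genes, with a median of 0.06. Rian is counted in this list too. The lowest were Snhg18, with 98 and 158 UMIs (-0.69), and Six3os1, transcribed opposite the eye field gene Six3, with 86 and 133 UMIs (-0.63). The far fewer Müller glia held 54 and 83 Snhg18 UMIs and 254 and 407 Six3os1 UMIs, and bipolar cells 103 and 133 Rian UMIs. Like those of Meg3 and Snhg11, the low rod counts of these 3 RNAs were not told apart from background RNA. The highest were Vax2os, transcribed opposite Vax2, with 24785 and 18651 UMIs (0.41), and Dleu2, a host of microRNAs, with 1756 and 1515 UMIs (0.21).

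In rods, mRNAs of the protein partners of these nuclear bodies were near level. Of 15 paraspeckle protein mRNAs none passed 0.5 in either direction, with a median of 0.05, among them Smarca4 at -0.17, Ewsr1 at -0.08 and Taf15 at 0.20. Of 20 nuclear speckle and splicing mRNAs none passed 0.5, with a median of 0.08, from Celf3 at -0.33 and Pnn at -0.09 to Srsf7 at 0.25 and Qk at 0.27. Of 81 measured ribosomal protein mRNAs none passed 0.5, but their median was -0.22, among them Rpsa at -0.37, Rpl7l1 at 0.11 and Rps2 at 0.12.

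Genes whose levels followed each member over rods, cones, bipolar cells and Müller glia of both libraries were ranked by Pearson's correlation of log2(CPM + 1), over 8 points and 11712 genes. The points share libraries, and 1 class can carry a correlation. Malat1 was most like Gna12 (0.997), Cdkn1a (0.991) and Arhgdia (0.990), and Neat1 most like Efemp1, Tcf7l1 and Bmp5 (0.998, 0.998 and 0.996). Meg3 was most like Arhgef4, Gtf2i and Tmem132a (0.995, 0.994 and 0.994), and Snhg11 most like Car10, Ring1 and Gng2 (0.991, 0.983 and 0.983). Microglia or macrophages, where Neat1 was highest, and amacrine cells, where Meg3 and Snhg11 were highest, were not among the points. Among the classes used, Efemp1 was highest in Müller glia, as Neat1 was, at 240 CPM in the db/db library and 272 CPM in the wild type library. Car10, a member of the carbonic anhydrase family, was at 432 and 433 CPM in bipolar cells, where Snhg11 was at 279 and 461 CPM.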

How the data were processed

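The authors deposited raw UMI counts per gene and barcode. The software was cellranger 6.0.1, per the file headers, and the submitters' processing notes name Cell Ranger with mm10. Annotation release, cell calling and strand use are not given in the sources used here. There were 11083 db/db barcodes with 33742189 UMIs and 10308 wild type barcodes with 35642274 UMIs.

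Cells with at least 200 genes and at most 20% mitochondrial UMIs were kept. A cell joined a class when at least 3 of its markers were detected and their share reached 5 times the mean over kept cells (20% for erythroid). Rods needed 0.5 times the median rod marker share. Cells near another gate or with rod and other markers were left out. The members were no markers. Doublets were kept: Scrublet called 2 db/db cells and 0 wild type cells, so its caller did not work here, and an alternative left out 674 and 740 cells above the score that bounds the top 8%.

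UMIs were summed per class and library and scaled to 1000000 (CPM). A gene counted as measured from 50 UMIs upwards, summed over the groups compared. A count of 0 was set to 3 in ratios, and no ratio was formed where both counts were at or under 3. Intervals are exact Poisson, Clopper-Pearson or conditional binomial at 95%. UMIs are not independent of the cell they come from, so the intervals are lower limits of the error. Thinning drew 1000 UMIs per cell. Clustering used scanpy 1.11.5 and leidenalg 0.10.2 on 2000 variable genes without the members. The ratio and its interval were tested on simulated data. Other tools were Python 3.11.15, numpy 2.4.6, scipy 1.17.1 and pandas 2.3.3.

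The 5 members, the lists and the rules were chosen with earlier results of these data known. Named genes were the 5 members, the 2 highest and 2 lowest rod ratios of each list, and the 3 genes most like each member; 2 genes that the rule names are not reported here. The other noncoding RNAs named by mitochondrial share, the 2% Malat1 limit, the depth ranges, the split of bipolar cells and the settings that drop cells rich in a gene were chosen after values were seen. Transcripts are from GENCODE M21 and promoters from RefSeq (GRCm38.p6), of which 27025 genes have one.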

Additional observations from a re-analysis of the deposited data

Results flagged for a closer look

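Meg3 was higher in cones of the db/db library (log2 ratio 1.002) and lower in rods of the db/db library (log2 ratio -0.9172). The 2 classes moved in opposite directions, and the difference between them was not tested. The cone value rests on 63 UMIs in db/db cells and 32 UMIs in wild type cells. Without cone cells of 3 or more Meg3 UMIs it was 0.74, with an interval of -0.21 to 1.74.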

How the results depend on the processing

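No paired analysis was possible because each genotype has 1 library, and for the same reason no replicate could be left out. Every interval covers counting error only. Below about 50 UMIs, as for Neat1 and Snhg11 in cones and Miat everywhere, depth did not allow a comparison. In rods Meg3 and Snhg11 stayed lower in the db/db library by at least 0.5 (log2) under all 14 alternatives each, between -1.166 and -0.5759 for Meg3 and between -1.76 and -1.202 for Snhg11. Snhg11 in bipolar cells stayed between -0.8354 and -0.6468 under 12, but was at -0.2503 without cells of 3 or more Snhg11 UMIs.

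The db/db over wild type ratio in rods moved as follows, and the cause was not tested. Malat1 was at 0.09878 without members and mitochondrial genes in the total, 0.0686 with median of ratios scaling, 0.03426 with equal weight per cell, 0.1235 at a limit of 10% mitochondrial UMIs, 0.02624 after thinning, 0.08462 without high doublet scores, 0.07113 with clusters, 0.08924 with a stricter gate and 0.07898 within mitochondrial bins. Neat1 was at 0.5385 within bins. That value rests on the 10 to 20% bin, at 3.25 with 18 UMIs in db/db rods against 1 in wild type rods. In the other bins Neat1 lay between -0.45 and 0.28. Meg3 was at -1.166 with equal weight per cell, -0.6252 without high doublet scores and -0.5759 without cells of 3 or more Meg3 UMIs. Snhg11 was at -1.76 with equal weight per cell. In Müller glia Snhg11 turned to 0.4135 with equal weight per cell, 0.2783 after thinning and 0.8096 without cells of 3 or more UMIs. Without such cells Neat1 was at 0.3337 in Müller glia and -0.248 in microglia or macrophages, both against their direction otherwise.

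For the lowest over the highest mitochondrial bin, Malat1 was at 2.083 in the db/db and 2.271 in the wild type library with all UMIs in the total, 1.845 and 2.025 after thinning, and 1.766 and 1.833 with equal weight per cell. It was at 1.915 in the db/db library without high doublet scores. In the wild type library thinning gave 0.9307 for Neat1 and -0.1112 for Snhg11. Of all genes in rods, 378 were lower by at least 0.5 with at least 50 UMIs, 115 with at least 200 UMIs, 1543 with at least 1 UMI and 53 at a fold of 1. For higher genes these were 410, 156, 1514 and 46. The alternatives that drop the 5 richest cells or cells with 3 or more UMIs were chosen after seeing the data.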

Other observations

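Single cells carried much of a member's count in some classes. The 5 db/db retinal pigment epithelium cells held 0 Meg3 UMIs, whereas 21 of the 22 UMIs of the 19 wild type cells came from 1 cell. All 8 Meg3 UMIs of the 37 db/db erythroid droplets came from 1 droplet, and the 21 wild type droplets held 0. Among rods, 1 cell held 10 Meg3 UMIs in the db/db library and 1 held 18 in the wild type library, and for Snhg11 the highest counts of a rod were 13 and 17 UMIs.

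Retinal pigment epithelium cells had the lowest Malat1 share of the nucleated classes, 2.15% in the db/db library and 1.85% in the wild type library, over 5 and 19 cells.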
